A study of Homo sapiens with 9 samples.

Results

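The lung adenocarcinoma cell line NCI-H3122 held 981 dense clusters of NKX2-1 peaks. They were found in the second of 2 NKX2-1 peak lists from this line, called replicate 2 here because its label carries that number. Peaks on chromosomes 1 to 22 and X were joined into 1 group wherever the gap from the end of a peak to the start of the next was at most 12.5 kb, and groups of at least 5 peaks were kept. Of 48061 peaks on these chromosomes, which formed 29560 groups, 6402 peaks (13%) lay in the 981 clusters, and 41659 did not. The number, spacing and length of the clusters therefore follow from the rule and are given as a description. The other lists took no part in the choice, and the comparisons below rest on them.

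The study mapped NKX2-1 by chromatin immunoprecipitation and sequencing (ChIP-seq) in NCI-H3122 and in 2 further lung adenocarcinoma lines, NCI-H1819 and NCI-H2087, all described as carrying an NKX2-1 amplification. All were grown in RPMI1640 with fetal bovine serum and fixed with formaldehyde, and no line received a treatment. NKX2-1 was precipitated with the Bethyl Laboratories antibody BL4000 in each line and FOXA1 with the Abcam antibody ab23738 in H3122. Of 9 samples, 5 had a peak list and 4 were input libraries without antibody, not analysed here. Each line is a single established culture line, and H1819, H2087 and FOXA1 had 1 list each. Nothing in the labels says that the 2 H3122 NKX2-1 lists came from separate cultures. Replicate 1 held 7469 peaks, replicate 2 48071, FOXA1 42437, H1819 13486 and H2087 14441. No list comes with its read depth, and beyond that amplification no copy number is known, so a peak missing from a shorter list cannot be told apart from a peak that was too weak to be called there.

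NKX2-1, also known as TTF-1, is a homeodomain transcription factor required for the formation of the lung and thyroid, and in the adult lung it drives surfactant genes in alveolar type II cells. FOXA1 is a forkhead factor of endodermal tissues that can bind its sites in closed chromatin and often sits beside other factors at enhancers. Several binding sites of a factor within a short stretch of chromosome are typical of large regulatory domains, which are often described around genes that define a cell type. Joining nearby peaks over a gap of this size is the usual first step in listing such domains.

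Most groups were single peaks. There were 19593 single peaks, 5840 pairs, 2198 groups of 3 and 948 groups of 4. The clusters continued this series with 412 groups of 5 peaks, 236 of 6 and 125 of 7, and 208 clusters held 8 or more. The largest held 30 peaks, and the next largest held 19. Clusters were 5.35 to 106 kb long, with a median of 24.8 kb and quartiles of 18.6 and 32.8 kb. Together they spanned 26.8 Mb, which is 0.885% of the chromosomes. Peaks filled 17.9% of that span. The median gap between adjacent members was 3.07 kb, with quartiles of 0.997 and 6.56 kb.

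**Figure D1:**
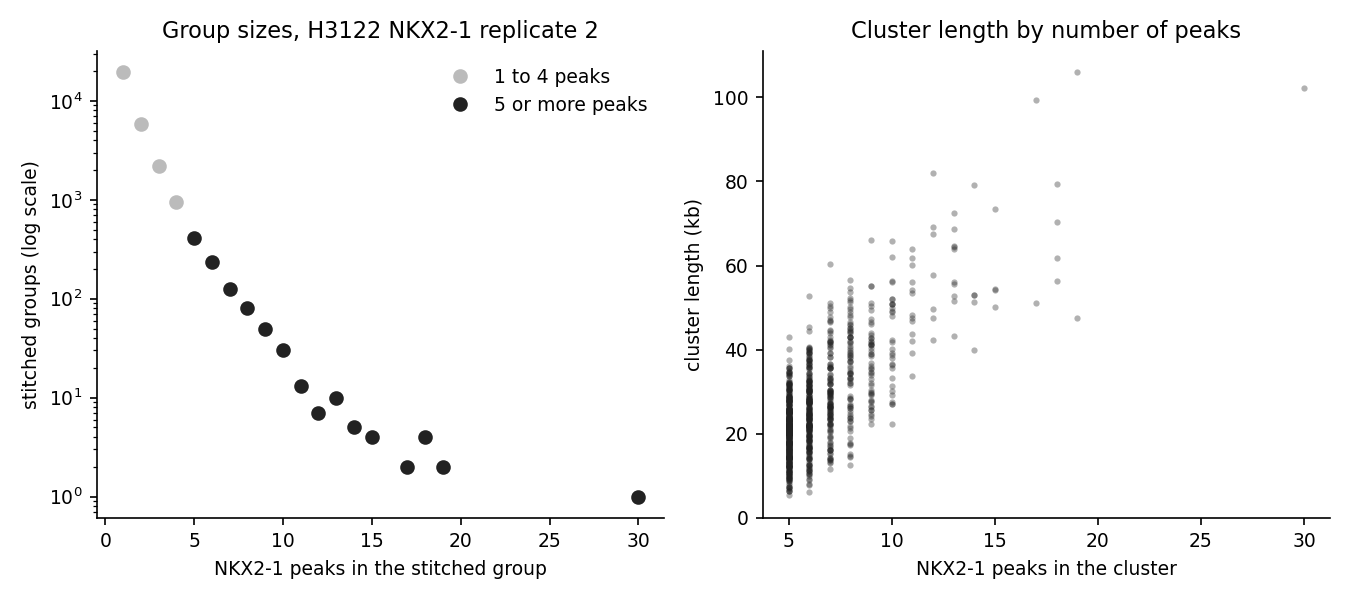
Left, number of stitched groups (log scale) by the number of NKX2-1 peaks they hold, for H3122 replicate 2; right, length in kb of each of the 981 clusters against its number of peaks, 1 point a cluster. The counts fall from 19593 single peaks to 412 groups of 5 peaks, and the cluster of 30 peaks stands apart from the next largest, of 19.

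Each deposited peak has a score, the authors' own value, which is higher for a peak with stronger evidence. Its scale is not stated in the sources used here. The median score was 150 among members and 136 among the other peaks, and the median width was 684 bp against 652 bp. Both properties can affect how often another list overlaps a peak, so comparisons matched on them are given below. The highest-scoring member had a median score of 566, and 13 clusters held a peak at 3100 or above, where the scores pile up. The threshold fell between groups of close values: those of 5 peaks had a median length of 20.4 kb and a median score of 147, and those of 4 peaks had 15 kb and 151.

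Clusters lay on all 23 chromosomes examined, 3.25 per 10 Mb on average. Chromosome 6 had the most, 83 clusters or 4.86 per 10 Mb. Chromosomes 12, 20 and 17 followed with 4.84, 4.80 and 4.70 per 10 Mb. The X chromosome had 8 clusters, or 0.516 per 10 Mb, and chromosome 16 had 16, or 1.80. The share of a chromosome's peaks that were clustered ran from 4.84% on X to 17.1% on chromosome 20. The median distance to the next cluster on the same chromosome was 1299 kb, and 68 of 958 such distances were under 50 kb. By Giemsa stain, which is darker in gene-poor sequence, unstained bands held 4.04 clusters per 10 Mb, the palest stained class 4.58 and the darkest 1.96. Of the peaks in these 3 kinds of band, 14%, 14.8% and 10.0% were clustered.

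A cluster fell in 461 of 851 bands. The band with the most was 5q23.2, which holds ZNF608, a zinc finger gene. It had 11 clusters with 70 member peaks over 5.80 Mb. FOXA1 overlapped 46 of these 70 peaks, H1819 15, H2087 5 and replicate 1 8. Over all replicate 2 peaks these lists overlapped 47.8%, 14.7%, 20.0% and 12.5%, in that order. The next was 7p21.1, which holds AHR, the aryl hydrocarbon receptor gene, with 8 clusters of 64 peaks, of which FOXA1 overlapped 45, H1819 8 and H2087 8. Both genes were chosen for mention after these values were seen. Among bands of 7 clusters, 1p36.23 was the densest, with 3.33 clusters per Mb. Its 42 members were overlapped 25 times by FOXA1, 14 times by H1819 and 20 times by H2087. Band 19p13.3 had the opposite balance, with 6 of 44 members overlapped by FOXA1 and 20 by H2087. Bands thus differed in how often FOXA1 and each other line met the clustered peaks. These differences between single bands were not tested.

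Gene annotation of the build the lists use, hg18, was not used here, so clusters were not assigned to genes. Genes of lung epithelium were placed by band alone, and a gene and a cluster in 1 band can be megabases apart. Of 29 such genes, 24 lay in a band with at least 1 cluster, which was 21 of their 26 bands (80.8%), where 54.2% of all bands had one, centromeric bands included. These were 9 of 11 lung epithelial transcription factors, 7 of 9 surfactant and lamellar body genes, all 3 secretory genes of club cells, 4 of 5 receptor kinase genes, and LMO3, a known NKX2-1 target. The 26 bands of these genes had a median of 0.462 clusters per Mb, and all bands a median of 0.182 with a mean of 0.344. Bands were not matched on length, stain or gene content, and the contrast with all bands was not tested. The bands of GATA6, CEBPA, SFTPB, NAPSA and ERBB3 had none.

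Band 14q13.3, which holds NKX2-1 itself, had 2 clusters. This locus is the one described as amplified in all 3 lines, and the effect of copy number on peaks here was not tested. The first lay at chr14:35746508-35778350 and held 7 peaks over 31.8 kb. FOXA1 overlapped 5 of its members, H2087 2, replicate 1 2 and H1819 none. The second, at chr14:36290021-36312384, held 5 peaks over 22.4 kb with a best score of 1794. FOXA1 overlapped 4 of these, H1819 2, replicate 1 1 and H2087 none. The 2 clusters of this band thus each had overlaps from 1 other line, and not from the same one. Band 14q21.1, which holds FOXA1, had 1 cluster of 5 peaks at chr14:39144631-39156866. FOXA1 overlapped 2 of its members, H1819 1, replicate 1 1 and H2087 none.

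Band 12p12.3, which holds LMO3, had 4 clusters. The largest, at chr12:17088774-17127620, held 8 peaks over 38.8 kb. FOXA1 overlapped 5 of its members and H1819 4, replicate 1 overlapped 1 and H2087 none. The other clusters of the band, of 6, 5 and 5 peaks, lay at chr12:14989189-15006226, chr12:14871100-14899402 and chr12:15742463-15763382. H2087 overlapped 1 member in each of them, H1819 none, and FOXA1 4, 3 and 4. Band 13q22.1, which holds KLF5, a factor of epithelial progenitors, had 3 clusters with 21 members. FOXA1 overlapped 13 of these, H1819 4 and H2087 none. The 3 clusters of 10q22.3, which holds the surfactant protein genes SFTPA1, SFTPA2 and SFTPD, had 16 members, of which FOXA1 overlapped 4, H2087 4 and H1819 1. Band 1q32.1, which holds the epithelial factor ELF3, had 4 clusters with 28 members, of which H2087 overlapped 12, FOXA1 11 and H1819 7.

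The largest cluster lay at chr6:16777268-16879502 in 6p22.3 and held 30 NKX2-1 peaks over 102 kb. Member scores ran from 64.5 to 1541, with a median of 208. Its span held 27 FOXA1 peaks, 9 peaks of H1819, 9 of H2087 and 2 of replicate 1. FOXA1 overlapped 20 members, H2087 8, H1819 7 and replicate 1 2. Both lines had peaks here, and they differed in place. The first H1819 peak began 62.6 kb into the cluster, and the first H2087 peak began at 12.5 kb. The highest-scoring member, 14.6 kb from the start, was overlapped by FOXA1, H2087 and replicate 1 and not by H1819. The member of second-highest score, 1086 at 62.4 kb, was overlapped by FOXA1 and H1819 and not by H2087. Only the members at 92.1 and 97.0 kb, with scores of 779 and 1019, were overlapped by both lines, and FOXA1 overlapped both of them.

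The longest cluster, at chr13:40428358-40534414 in 13q14.11, held 19 peaks over 106 kb. FOXA1 overlapped 16 of them, the highest share among the 10 clusters with the most peaks, while H1819 overlapped 3, replicate 1 2 and H2087 1. The cluster at chr7:130214270-130261914 in 7q32.3 held as many peaks in 47.6 kb. There FOXA1 overlapped 14 members, H2087 8, replicate 1 3 and H1819 1. A cluster in 8q12.3 of 18 peaks over 79.3 kb held a peak at a score of 3100. FOXA1 overlapped 10 of its members, H2087 3, replicate 1 2 and H1819 1.

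Including it, 4 clusters had 18 peaks. That at chr15:38118471-38188937 in 15q15.1 was overlapped by FOXA1 at 4 members, by H2087 at 6, by replicate 1 at 4 and by H1819 at none. At chr10:51788688-51850404 in 10q11.23, FOXA1 overlapped 11 members, H1819 and replicate 1 overlapped 1 each, and H2087 none. At chr2:65421522-65477961 in 2p14, FOXA1 overlapped 12, H2087 4, H1819 2 and replicate 1 none. These clusters of equal size thus ranged from 4 to 12 members with FOXA1 and from 0 to 6 with H2087.

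The cluster at chr1:39353400-39452802 in 1p34.3 held 17 peaks over 99.4 kb, of which FOXA1 overlapped 9, H2087 8, H1819 4 and replicate 1 4. That at chr2:100836135-100887241 in 2q11.2, also of 17 peaks, was overlapped at 7 members by FOXA1, at 5 by H2087, at 3 by replicate 1 and at 1 by H1819. The last of the 10, of 15 peaks at chr20:5642915-5716281 in 20p12.3, was overlapped at 10 members by FOXA1, at 5 by replicate 1, at 4 by H2087 and at none by H1819. FOXA1 had at least 4 members in each of the 10 clusters. Replicate 1, which comes from the same line as replicate 2, had between 0 and 5. Over all replicate 2 peaks, FOXA1 overlapped 47.8% and replicate 1, a much shorter list, 12.5%. Seen from the other lists, 81.7% of replicate 1 peaks and 54.5% of FOXA1 peaks overlapped a replicate 2 peak.

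**Figure D2:**
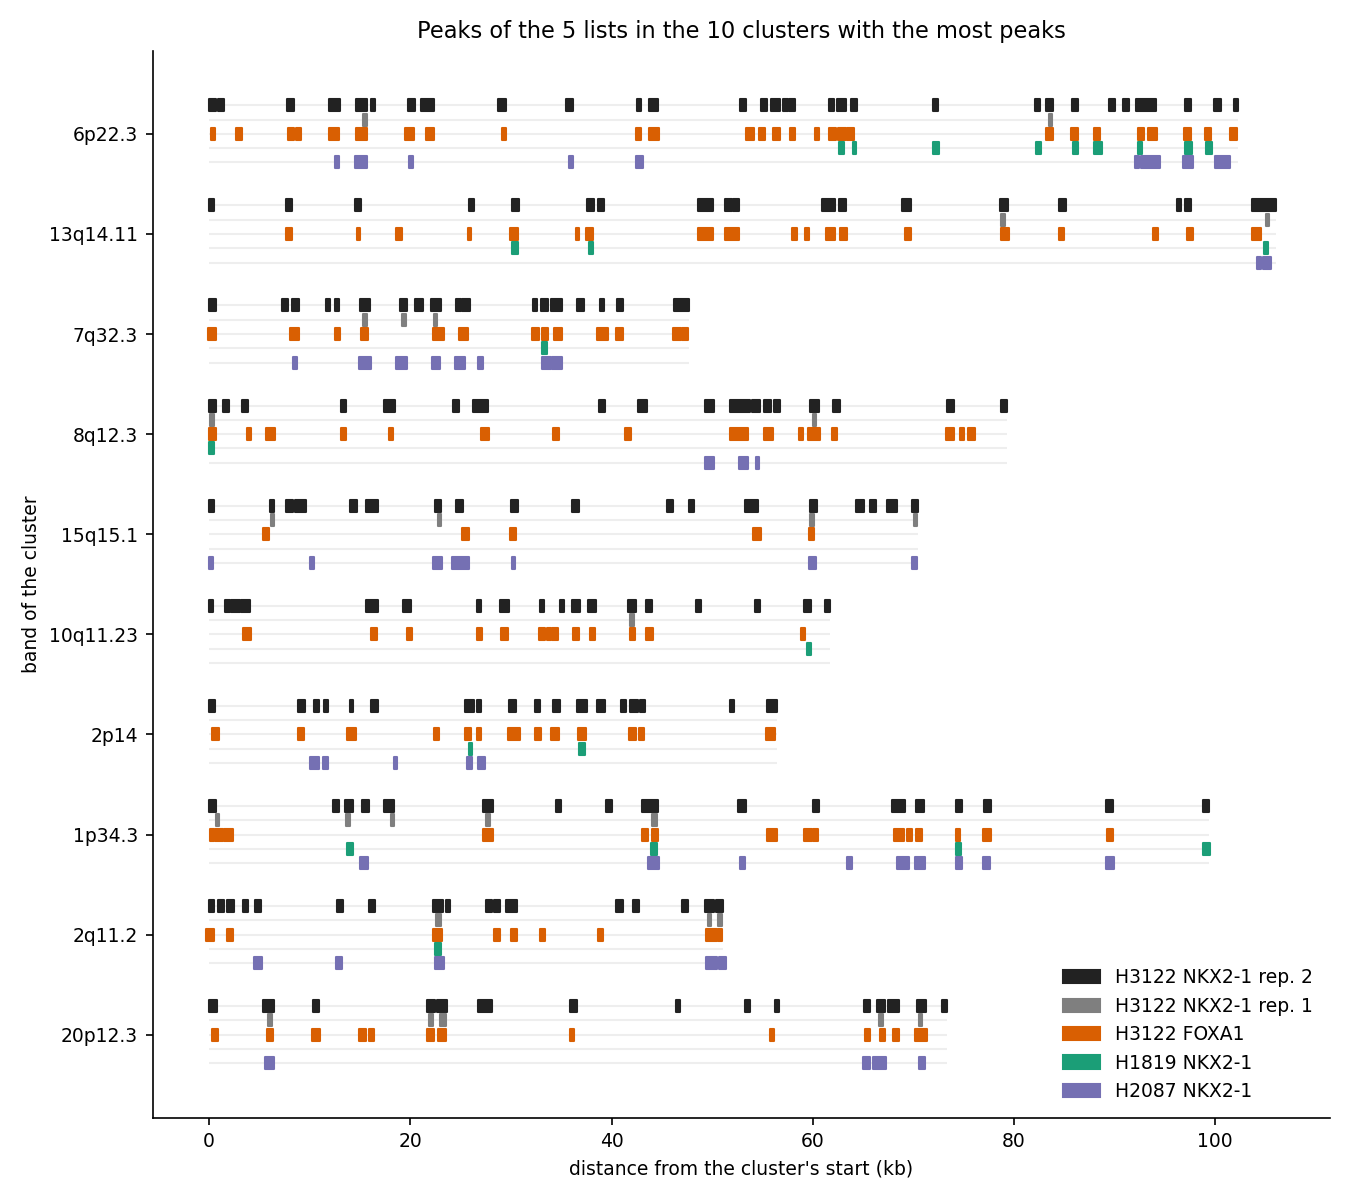
Peaks of the 5 lists in the 10 clusters with the most replicate 2 peaks, 1 block of rows a cluster, named by its band, with distance from the cluster's start in kb on the horizontal axis. FOXA1 marks recur along most clusters, and in 6p22.3 the 9 H1819 peaks all lie past 62 kb.

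FOXA1 met clustered NKX2-1 peaks more often than all other NKX2-1 peaks pooled, but not measurably more often than peaks in groups of 4. Of the 6402 members, 3338 (52.1%, Wilson 95% interval 50.9 to 53.4) were overlapped by a FOXA1 peak by at least 1 bp, against 47.1% of the other peaks and 47.8% of all. The difference was 5.01 percentage points (Newcombe 95% interval 3.69 to 6.32), and 19 of 23 chromosomes had the higher share in clusters. Within deciles of score it was 2.88 points (1.65 to 4.12). Such intervals cover counting error alone: peaks do not replicate a culture, and each side of the comparison is 1 list. With the stitched group as the unit, the interval was 3.45 to 6.57. Against peaks in groups of 2 to 4 the difference was 2.31 points (0.917 to 3.70), and against groups of 4 alone it was 0.109 points (-1.90 to 2.12), an interval that held 0.

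Single peaks had the lowest FOXA1 share. It was 44.1% for single peaks, 49.2% in pairs, 50.5% in groups of 3 to 4, 51.4% in clusters of 5 to 7 and 53.6% in clusters of 8 or more. The last 2 classes had overlapping intervals (50.0 to 52.9 and 51.5 to 55.8). The share did not rise steadily, since it was 52% in groups of 4 peaks (50.4 to 53.6) and 49.6% in clusters of 5 (47.4 to 51.7). Among members in the lowest decile of score FOXA1 overlapped 33.8%, against 25.8% of other peaks in that decile. In the highest decile the shares were 85.0% and 83.4%. The gap between clustered and other peaks was thus wider in the lowest decile than in the highest, but it did not change evenly between them. In decile 2 from the bottom the shares were 30.5% and 29.7%, and in decile 5 they were 46.0% and 40.6%.

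Nearly every cluster had FOXA1. A FOXA1 peak overlapped at least 1 member in 932 clusters (95%), where 55.8% of groups of any size had one. A group with more peaks has more chances of an overlap, and groups of 4 peaks had a FOXA1 member in 93.1% and clusters of 5 in 92.0% of cases. It overlapped at least 3 members in 657 clusters, at least 5 in 232, and every member in 36. Of the 948 groups of 4 peaks, 84 had FOXA1 on every member. The counts of at least 3 and at least 5 are not set beside smaller groups, which hold fewer peaks. In 49 clusters FOXA1 overlapped no member, and 38 of the 981 clusters had no FOXA1 peak in their span at all. A FOXA1 peak lay in the span of 96.1% of clusters, 94.6% of groups of 4 peaks and 56.4% of groups of any size. The spans of the clusters held 3970 FOXA1 peaks, 9.36% of that list, with a median of 4 and a maximum of 27 per cluster. FOXA1 peaks outnumbered NKX2-1 peaks in 48 clusters. The median score of FOXA1 peaks was 182 in the spans and 135 elsewhere. When FOXA1 peaks were stitched by the same rule they gave 655 clusters of their own, of which 367 (56.0%) overlapped an NKX2-1 cluster. These touched 365 (37.2%) of the NKX2-1 clusters.

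The clusters with the most FOXA1 peaks in their span, after those in 6p22.3 and 13q14.11, were in 8q12.3 with 16, in 1p34.3 with 15 and in 13q22.3 with 15. The last, at chr13:76979908-77031474, held 13 NKX2-1 peaks, of which FOXA1 overlapped 10, H1819 5, H2087 4 and replicate 1 2. The largest clusters with no FOXA1 peak at all were smaller. The first, at chr22:36217344-36272471 in 22q13.1, held 9 NKX2-1 peaks with a best score of 197. H2087 overlapped 3 of them, replicate 1 1 and H1819 none. The next had 8 peaks at chr19:1198954-1227245 in 19p13.3, of which H2087 overlapped 2 and H1819 1. A cluster of 7 at chr20:33354956-33378946 in 20q11.22 had 3 members overlapped by H2087, 1 by replicate 1 and none by H1819. Another of 7 in 8q24.3 had 4 overlapped by H2087 alone. The last, of 6 peaks at chr1:154964971-155004069 in 1q23.1, had 3 overlapped by H1819 and 3 by H2087. Each of these 5 clusters had at least 2 members overlapped by H2087, and their best scores ran from 163 to 273. H2087 overlapped 20.0% of all replicate 2 peaks. These 5 were the largest of 49 clusters with FOXA1 on no member and do not stand for the rest. The cluster of 6 peaks in 5q35.1, for example, had no member overlapped by FOXA1 or H2087.

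Members of the clusters were kept in the other lines somewhat more often than other peaks. A peak is called kept where a peak of the other line overlaps it by at least 1 bp. H2087 kept 1462 members (22.8%, Wilson interval 21.8 to 23.9), against 19.6% of other peaks and 20.0% of all. The difference was 3.26 points (Newcombe interval 2.18 to 4.37, or 1.70 to 4.81 with the stitched group as the unit). It was 2.23 points (1.16 to 3.30) within score deciles and positive on 17 of 23 chromosomes. Against only those other peaks within 100 kb of a cluster it was 0.752 points, and that interval (-0.851 to 2.34) held 0. It was 1.21 points (-0.636 to 3.14) when only peaks with scores of at least 100 were stitched. With replicate 1 stitched in place of replicate 2 there were 4 clusters of 21 peaks in all, and the differences were -6.10 points (-19.3 to 15.2) for H2087, 6.87 (-13.8 to 25.3) for FOXA1 and 7.92 (-8.25 to 29.2) for H1819.

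H1819 kept 1071 members (16.7%, 15.8 to 17.7), against 14.4% of other peaks and 14.7% of all. The difference was 2.35 points (1.39 to 3.34, or 1.11 to 3.58 with the stitched group as the unit). It was 1.25 points (0.312 to 2.19) within score deciles and positive on 16 of 23 chromosomes. It was 0.902 points (-0.0348 to 1.84) when score and width were matched together, and 0.655 (-1.01 to 2.47) for clusters stitched at 5 kb. Replicate 1 overlapped 937 members (14.6%), against 12.1% of other peaks and 12.5% of all, a difference of 2.51 points (1.61 to 3.45). Within score deciles the replicate 1 difference was 0.654 points, and its interval (-0.152 to 1.46) held 0. Against groups of 4 peaks it was 0.554 points (-0.868 to 1.94), while the differences against groups of 4 were 1.99 points (0.520 to 3.43) for H1819 and 2.24 (0.580 to 3.87) for H2087.

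**Figure D3:**
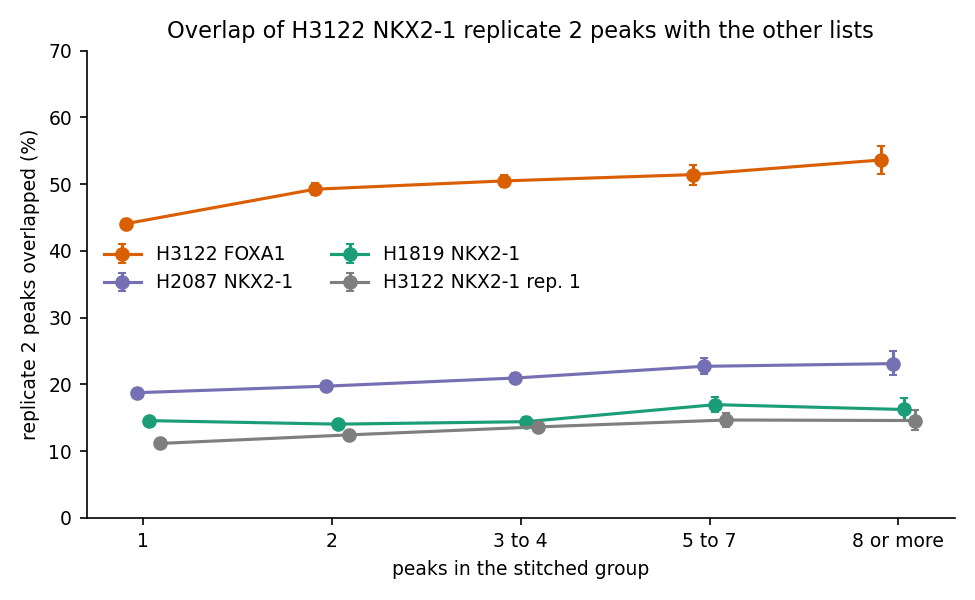
Share of H3122 NKX2-1 replicate 2 peaks overlapped by a peak of each other list (percent, points with Wilson 95% intervals), by the number of peaks in their stitched group. FOXA1 goes from 44.1% at single peaks to 53.6% in clusters of 8 or more, H2087 from 18.8% to 23.1%, H1819 from 14.6% to 16.2% and replicate 1 from 11.1% to 14.6%.

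The difference was largest in points among the best peaks for both lines. In the highest decile of score, H1819 kept 42.1% of clustered and 33.4% of other peaks, and H2087 kept 41.7% and 35.2%. In the decile below it H1819 kept 23.1% of clustered and 24.6% of other peaks, so its difference did not grow evenly with score. In the lowest decile H1819 kept 6.40% and 5.27%, and H2087 11.0% and 9.09%. Replicate 1 overlapped 57.4% and 53.8% in the highest decile.

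Counted by cluster, H1819 kept at least 1 member in 564 (57.5%, 54.4 to 60.6) and H2087 in 599 (61.1%, 58.0 to 64.1). Among groups of any size these shares were 20.0% and 25.1%, and in groups of 4 peaks 40.6% and 47.3%, so here too the number of peaks in a group bears on the count. Replicate 1 did so in 608 clusters (62%, where 17.9% of groups of any size did). Both lines kept a member in 397 clusters (40.5%), H1819 alone in 167, H2087 alone in 202 and neither in 215 (21.9%). Among the 208 clusters of 8 or more peaks, 108 (51.9%) had a member kept in both lines and 27 (13.0%) in neither. Among groups of 4 peaks, just under the threshold, 35.5% had a member kept in neither, and among clusters of 5 peaks 27.7%.

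In most of the clusters with a kept member, only 1 or 2 members were kept. H1819 kept at least 3 members in 131 clusters and at least 5 in 17, and H2087 in 241 and 52. These counts are not set beside smaller groups, which hold fewer peaks. At least 50% of the members were kept by H1819 in 87 clusters (8.87%) and by H2087 in 171 (17.4%). FOXA1 overlapped at least 50% in 577 (58.8%), and replicate 1 in 24 (2.45%). In groups of any size these shares were 15.8%, 21.13%, 51.3% and 12.8%, in that order. In groups of 4 peaks they were 14.1%, 23.4%, 71.2% and 10.8%. The FOXA1 share in clusters lay above that of all groups and below that of groups of 4. H1819, H2087 and replicate 1 had lower shares in clusters than in either. At least 50% means 2 members of 4 but 3 of 5, so group size bears on these shares. All members were kept by H1819 in 1 cluster and by H2087 in 8, and in 7 and 18 of the 948 groups of 4 peaks. Stitched by the same rule, H1819 gave 85 clusters of its own, of which 33 (38.8%) overlapped 33 (3.36%) of the H3122 clusters. H2087 gave 169, of which 70 (41.4%) overlapped 69 (7.03%). Replicate 1 gave 4, of which 3 overlapped.

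The clusters in which the lines kept the most members are named with ties ordered by their number of peaks, so others with as many kept members are left out. One such cluster, at chr11:118282894-118314903 in 11q23.3, had 6 of 9 members kept in H1819 and 7 in H2087. In H1819 the named ones were led by 6p22.3 and by chr12:45110317-45174921 in 12q13.11, where it kept 7 of 13 members and H2087 4. At chr11:57287435-57309696 in 11q12.1 H1819 kept 7 of 7 members and H2087 2, and FOXA1 overlapped 5. At chr16:31013436-31069444 in 16p11.2 H1819 kept 6 of 10 members and H2087 3. At chr5:124007704-124048210 in 5q23.2 H1819 kept 6 of 9 members, with 9 H1819 peaks in the span, while H2087 had none.

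In H2087 the most members, 9 of 13, were kept in a cluster in 8q24.21 of 68.7 kb, where H1819 kept 1 and replicate 1 overlapped 5. At chr10:95185817-95232579 in 10q23.33 H2087 kept 7 of 11 members, with 12 peaks in the span, and H1819 kept 3. The 8 members each in 6p22.3, 7q32.3 and 1p34.3 are given above. Among the clusters where replicate 1 overlapped most members was chr1:200243630-200294782 in 1q32.1. Its 9 members had the high median score of 540, replicate 1 overlapped 5 of them with 8 peaks in the span, H2087 kept 6 and H1819 3.

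No peak of either line fell in the span of 203 clusters (20.7%). The same held for 34.4% of groups of 4 peaks and 72.5% of single peaks, where fewer peaks leave fewer chances. Among spans of any size, 20.4% had an H1819 peak and 25.2% an H2087 peak. The largest of the 203 was in 8q21.13, with 11 peaks over 48.2 kb and a best score of 1425. FOXA1 overlapped 9 of its members and replicate 1 2. Of the next 5, of 10 peaks each, the 4 longest lay at chr3:119073401-119122627 in 3q13.32, chr5:114707521-114744013 in 5q22.3, chr4:102244667-102281041 in 4q23 and in 8q12.1. FOXA1 overlapped 6, 7, 8 and 8 of their members, and 7 in the remaining one, at chr6:128855036-128884344 in 6q22.33. The cluster in 8q12.1 had a best score of 2481 and 2 members overlapped by replicate 1. FOXA1 thus overlapped at least 6 members in each of these 6 clusters without a peak of either other line. They were picked for size from the 203. Among all clusters of 8 or more peaks, FOXA1 overlapped 53.6% of members, with a median of 5 per cluster. At the other end, 284 clusters held peaks of all 4 other lists, and 101 held none of replicate 1, H1819 or H2087. Neither count is set beside smaller groups here, which have fewer peaks to overlap.

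H1819 kept members that H2087 also kept more often than the rest, though the kept sets differed. H1819 kept 434 of the 1462 members kept in H2087 and 637 that H2087 did not keep. H1819 kept 29.7% of members that H2087 also kept and 12.9% of the rest, a difference of 16.8 points (14.3 to 19.4), or 11.4 (8.86 to 13.9) within score deciles. Among peaks outside clusters the shares were 28.7% and 10.9%. Kept members also lay side by side. A member next to one kept in H2087 was itself kept in 45.4% of cases, and next to one not kept in 16.3%. For H1819 these shares were 29.3% and 14.1%, for FOXA1 57.2% and 47.5%, and for replicate 1 15.7% and 14.8%. Some neighbours were overlapped by a single wide peak. Without such pairs the first of each was 41.4% for H2087, 27.6% for H1819 and 55.4% for FOXA1. At gaps of 5 kb or more H2087 still had 35.2% against 18.2%, and H1819 29.2% against 15%. Groups of 2 to 4 peaks had like values, 44.9% against 14.2% for H2087 and 28.9% against 11.8% for H1819. These shares are a description of pairs that share a member, and they carry no test.

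FOXA1 and H2087 had more peaks in the gaps of clusters, where replicate 2 had none, than in the flanks. The gaps summed to 22.0 Mb. They held 638 FOXA1 peaks that touched no replicate 2 peak, or 29.0 per Mb (exact Poisson 95% interval 26.8 to 31.4). Flanks of 12.5 kb on each side of the clusters, also free of replicate 2 peaks, had 17.6 per Mb (15.9 to 19.3), flanks of 6.25 kb 21.4 (18.9 to 24.1) and all sequence outside replicate 2 peaks 6.46. H2087 had 8.24 per Mb in the gaps (7.08 to 9.53), 4.24 in the wider flanks (3.46 to 5.14) and 1.56 in all. H1819 had 7.01 (5.95 to 8.21), 4.81 (3.98 to 5.77) and 2.10. In the narrower flanks H2087 had 5.46 (4.23 to 6.94) and H1819 5.79 (4.52 to 7.30). The intervals of gaps and narrower flanks overlapped for H1819 and did not for FOXA1 and H2087. By the rule, a gap lies between replicate 2 peaks, at a median of 3.07 kb, while a flank has a cluster on 1 side. Gaps and flanks thus differ in distance to replicate 2 peaks by construction, and densities were not matched on it. Replicate 1 had 31 such peaks in the gaps, 1.41 per Mb (0.959 to 2.0), against 1.15 (0.765 to 1.66) in the wider and 1.22 (0.685 to 2.02) in the narrower flanks, and these intervals overlapped. These peaks were a minority: 83.9% of FOXA1 peaks in the spans, 88.8% of H2087 peaks, 87.6% of H1819 peaks and 96.9% of replicate 1 peaks lay on a member. Gaps inside groups of 2 to 4 peaks had 20.8 FOXA1 peaks per Mb (19.6 to 22.0) and 6.19 of H2087 (5.57 to 6.87). Both intervals also lay above those of the wider flanks, so more peaks in gaps were not particular to dense clusters. H1819 had 4.98 per Mb there (4.42 to 5.59) and replicate 1 1.04 (0.792 to 1.34).

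**Figure D4:**
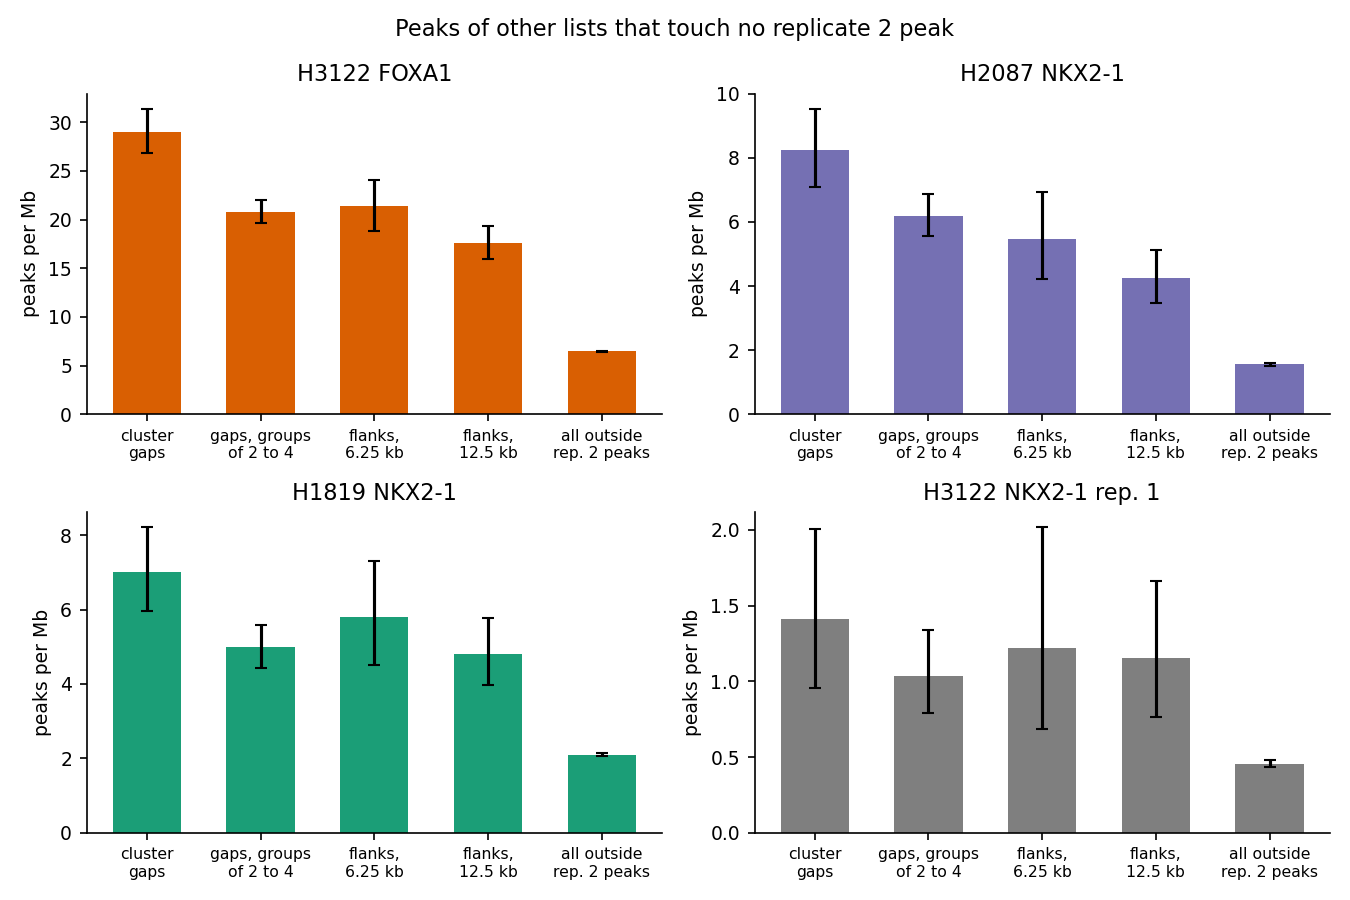
Bars give the peaks per Mb of each other list that touch no replicate 2 peak, with exact Poisson 95% intervals, in the gaps inside clusters, in the gaps of groups of 2 to 4 peaks, in flanks of 6.25 and 12.5 kb around clusters and in all sequence outside replicate 2 peaks. FOXA1 has 29.0 per Mb in cluster gaps and 17.6 in the wider flanks, and each panel has its own scale from 0.

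Within clusters, inner members were overlapped by FOXA1 more often than the first and last ones. The shares were 53.3% of 4440 and 49.6% of 1962, a difference of 3.67 points (1.02 to 6.32), or 2.63 (0.134 to 5.12) within score deciles. For H2087 the difference was 1.18 points (-1.07 to 3.36) and for H1819 -0.424 (-2.45 to 1.53), and both intervals held 0. Replicate 1 overlapped 15.3% and 13.1%, and within score deciles its interval held 0 (-0.353 to 2.84). The highest-scoring member of a cluster was overlapped by FOXA1 in 73.6% of clusters, by replicate 1 in 44.3%, by H2087 in 40.4% and by H1819 in 34.5%. The remaining members, whose median score was 127, had 48.3%, 9.26%, 19.7% and 13.5%. The highest-scoring member was the first or last in 282 clusters (28.7%), where 30.6% of all members were first or last.

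Clusters poor and rich in FOXA1 differed in how often H2087 kept their members. FOXA1 overlapped under 1/3 of the members in 192 clusters, called FOXA1-poor here, and 2/3 or more in 314, called FOXA1-rich. The classes were drawn from FOXA1 alone. H2087 kept 31.5% of the 1181 members of FOXA1-poor clusters (28.9 to 34.2), 21.9% in the 475 clusters between and 19.4% of the 2119 members of FOXA1-rich ones (17.8 to 21.2). The difference of poor minus rich was 12.1 points (8.94 to 15.2), or 7.66 to 16.4 with the cluster as the unit. H1819 kept 17.0%, 16.1% and 17.5% in the same classes, and its difference was -0.442 points (-3.08 to 2.29). Replicate 1 overlapped 14.7%, 14.7% and 14.4%.

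The classes differed in other measures too. The median member score was 118 in FOXA1-poor and 183 in FOXA1-rich clusters, and 82.3% and 50.6% of them lay in unstained bands or bands of the palest stained class. Matched on score deciles, poor minus rich was 18.2 points for H2087, 5.05 (2.45 to 7.66) for H1819 and 8.39 (6.15 to 10.6) for replicate 1. Matched on score and stain it was 16.5 points (13.4 to 19.7) for H2087 and 4.46 (1.76 to 7.15) for H1819. The H1819 difference, whose unmatched interval held 0, was thus positive after matching. That of replicate 1 moved likewise, from 0.293 points unmatched (-2.17 to 2.86), and that of H2087 was positive with and without matching. The effect in H2087 exceeded that in H1819 by 12.5 points (7.62 to 17.4, with the cluster as the unit, unmatched). Other properties of these bands were not tested.

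**Figure D5:**
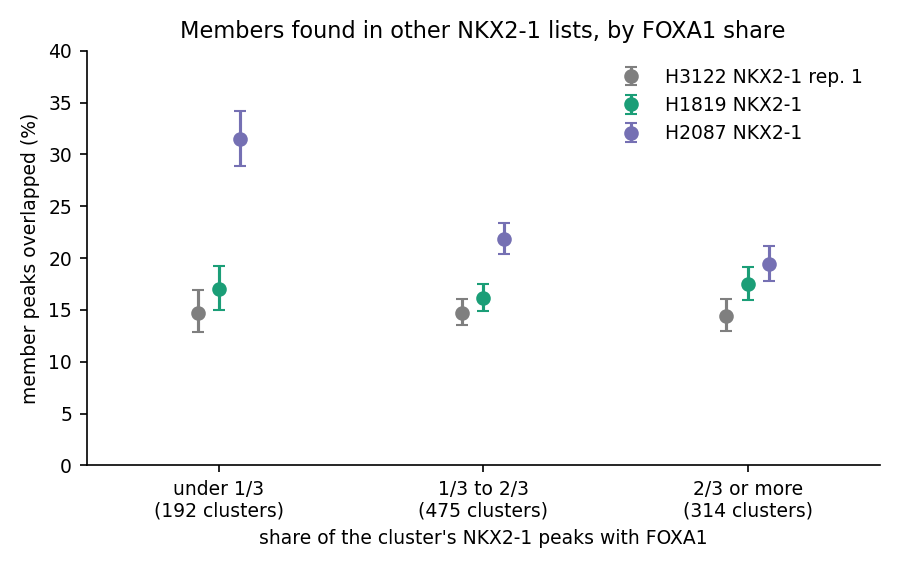
Share of member peaks overlapped by H1819, H2087 and replicate 1 (percent, Wilson 95% intervals), in clusters with FOXA1 on under 1/3, 1/3 to 2/3 and 2/3 or more of their NKX2-1 peaks. H2087 goes from 31.5% to 19.4%, while H1819 stays between 16.1% and 17.5% and replicate 1 between 14.4% and 14.7%.

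The same contrast was made member by member. Members with and without a FOXA1 peak were kept by H2087 in 23% and 22.6% of cases, a difference of 0.420 points (-1.64 to 2.47), and of -7.60 (-9.68 to -5.53) within score deciles. H1819 kept 19.3% and 13.9%, a difference of 5.42 points (3.6 to 7.23) that turned to -2.12 (-3.93 to -0.313) within score deciles. Replicate 1 overlapped 18.6% and 10.3%, and its 8.29 points turned to -3.43 within score deciles. Members with FOXA1 were the higher-scoring ones, and at equal score each of the 3 NKX2-1 lists met them less often. Outside clusters the matched difference was -11.0 points for H2087 and -6.20 for H1819.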

How the data were processed

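In all, 5 deposited peak lists were used, 1 for each precipitated library of the 3 lines. Per the submitters' processing notes, the authors used Bowtie, the build hg18 and MACS 1.4.0. How inputs were paired, and any filter or threshold, is not given in the sources. Each list gives position and a score, the authors' own deposited value. Ranking and matching by score were done within replicate 2. Scores also served to describe FOXA1 peaks inside and outside the spans. In some alternatives they set a lower limit on the peaks of replicate 2 or of the other lists. The lowest deposited score was 50 in replicate 1 and 60 in the others. Read depth is unknown.

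Stitching, overlaps (at least 1 bp), Wilson, Newcombe and exact Poisson intervals at the 95% level used Python 3.11.15, numpy 2.4.6, pandas 2.3.3 and scipy 1.17.1. Matched differences were taken over 10 score or width classes, over both crossed, or over score together with stain. They are Mantel-Haenszel differences with Sato's interval. That interval takes each peak as its own unit, although neighbouring members were often kept together. A call means that an interval excludes 0, and no p-value was computed. The code was tested on simulated lists and against bedtools 2.31.1. Bands of hg18 came from circlize 0.4.16 and chromosome lengths from GenomeInfoDb 1.38.1 in R 4.3.3. Listed genes were placed in bands through RefSeq's GRCh38 table and matched to hg18 bands by name, whose edges may differ. Of the replicate 2 peaks, 10 lay on other sequence and formed no cluster.

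Clusters named are the 10 with the most peaks, the 5 with the most members overlapped by each NKX2-1 list, the 5 with the most FOXA1 peaks, the 5 largest with no H1819 or H2087 peak, the 5 largest with the lowest FOXA1 share (ties at the limit by length or number of peaks), the 3 longest and those of 3 gene bands. The members and lists were chosen with earlier results of these data known.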

Additional observations from a re-analysis of the deposited data

Results flagged for a closer look

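The contrast of FOXA1-poor with FOXA1-rich clusters came out differently in the 2 other lines. Poor minus rich was 12.1 points for the share of members kept in H2087 and -0.442 points (-3.08 to 2.29) in H1819. Matched on score, both lines had a positive difference, 18.2 points in H2087 and 5.05 (2.45 to 7.66) in H1819, and so had replicate 1, with 8.39. The H2087 effect exceeded the H1819 effect by 12.5 percentage points unmatched, with an interval of 7.62 to 17.4 over clusters. Each line had 1 list, so the spread between cultures of a line is not known.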

How the results depend on the processing

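Of 79 alternatives to 7 results, 55 left the result in the same direction and on the same side of its threshold, or within its limits, and 48 of the 59 for the 4 differences did so. The 981 clusters became 291 at a gap of 5 kb, 1947 at 25 kb, 208 at 8 or more peaks and 354 when peaks with scores of at least 100 were stitched. The share of clusters with a member kept in H1819 became 49.5% at 5 kb, 67.8% at 8 or more peaks, 62.4% for stitched peaks with scores of at least 100 and 45.7% with H1819 peaks of at least 100. For H2087 it became 71.2% at 8 or more peaks and 54.8% with H2087 peaks of at least 100. The H1819 difference was 0.655 points at 5 kb and 0.902 matched on score and width, the H2087 difference 1.21 for stitched peaks with scores of at least 100 and 0.752 against peaks within 100 kb, and the replicate 1 difference 0.654 matched on score and 0.396 matched on score and width. Against groups of 4 peaks the FOXA1 difference was 0.109 and the replicate 1 difference 0.554 points. Matching on score and width together, the stitched group as the unit, and groups of 4 or of 2 to 4 peaks as the comparator were chosen after the data were seen. Without replicate 2, stitching replicate 1 gave 4 clusters of 21 peaks, with a member kept in 50% for each line, and differences of 6.87 points for FOXA1 (-13.8 to 25.3), 7.92 for H1819 (-8.25 to 29.2) and -6.10 for H2087 (-19.3 to 15.2). That H2087 sign was opposite, with an interval that held 0, and the cause of none of these shifts was tested. No paired analysis was possible because only H3122 NKX2-1 and its input have a second sample, and the inputs had no list. Depth limits the shorter lists to an unknown extent.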

Other observations

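The densest cluster for its length, chosen after its values were seen, lay in 8q12.1 and held 6 peaks in 6.11 kb, or 9.82 per 10 kb. FOXA1 overlapped 5 of its members and neither H1819 nor H2087 any. The next, at chr3:59620456-59625808 in 3p14.2, held 5 peaks in 5.35 kb, of which FOXA1 overlapped 4, H1819 3 and H2087 none. The sparsest, at chr12:26145258-26198119 in 12p12.1, held 6 peaks over 52.9 kb, of which H2087 kept 3, FOXA1 overlapped 2 and H1819 kept none.

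All members were kept by H2087 in 8 clusters, in bands 5p13.1, 7q11.23, 1p36.11, 12q21.2, 10q25.1, 3p21.31, 20q13.2 and 6p22.1. That in 5p13.1, at chr5:38818759-38843979, had 7 members, of which FOXA1 overlapped 5 and H1819 kept 1. The others had 5 members each. Those in 7q11.23 and 1p36.11 had no FOXA1 peak, and the cluster in 6p22.1 had 3 members kept by H1819.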
